A study of Mus musculus with 2 samples.

Results

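The mRNA decay regulators described here are 10 genes whose products decide how long other transcripts last. They are Zfp36, Zfp36l1 and Zfp36l2 (the Zfp36 family), Zc3h12a (regnase-1), Rc3h1 (roquin-1), Elavl1 (HuR), and Btg1, Btg2, Tob1 and Tob2 (the Btg/Tob family). They were chosen by name, through their mouse Ensembl gene identifiers, from the 55573 genes of the deposited tables, and all 10 had a row and passed the minimum of 10 reads in both libraries together. The RNA came from mesenteric arteries of wild-type C57BL/6 mice, 10 weeks old. One library is the control, in which arteries were kept in 5 mM K+ solution for 60 min, and the other was depolarized with 60 mM K+ solution for 60 min, so that the comparison asks which transcripts differ when the arterial wall is depolarized. Each library pooled tissue of 2 mice and each condition had 1 library, so the spread between animals was not measured and differences carry no p-value. The control had 10480918 reads assigned to genes and the depolarized library had 11289598. One protocol label of the control names the 60 mM K+ solution, but its title and treatment label give 5 mM K+ and were followed. The study's methods describe the control as the distal part of the artery, harvested after the bed had been rinsed and incubated, and the 60 mM K+ solution as perfused through the tissue that remained. Place along the artery, time, perfusion and K+ therefore cannot be told apart, and the libraries may share mice.

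A messenger RNA is usually destroyed in steps, beginning with removal of its poly(A) tail by the CCR4-NOT deadenylase and followed by decapping and digestion from either end. Zfp36 proteins bind AU-rich elements in 3′ untranslated regions (UTRs) and bring CCR4-NOT to the transcript, regnase-1 cuts and roquin-1 binds stem-loops in the 3′ UTRs of inflammatory transcripts, and HuR binds U-rich and AU-rich elements and is known for protecting transcripts. Btg and Tob proteins bind the catalytic subunits of CCR4-NOT and are known as antiproliferative factors, and several of these genes, Zfp36 and Btg2 among them, are themselves immediate early genes with short-lived transcripts.

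Depolarized arteries had more Zc3h12a and Btg1 mRNA than the control, by 3.19-fold and 2.05-fold, while Btg2, the most abundant member, differed by less than 1% after TMM scaling. Differences are given as log2(fold-change) of 60 mM K+ over 5 mM K+ after TMM scaling, a factor per library that centers most genes near 0, with a 95% interval that covers counting error only. Of the 10 members, 2 (Zc3h12a and Btg1) were past a 2-fold difference in the higher direction and 0 in the lower, beside 822 of 14829 genes tested (5.54%) higher and 869 (5.86%) lower. The study lists both Zc3h12a and Btg1 as up-regulated from these same libraries, and members were chosen with earlier results known. The count over the members is therefore not independent evidence. Many genes past 2-fold had few reads. Among the 6549 genes with at least 500 reads, a group that holds every member, 3.24% were past 2-fold higher and 0.122% lower. The median log2(fold-change) of the members was 0.32, against -0.0047 over all genes. Scaling by total counts lowers every log2(fold-change) by 0.21. The higher count over the members was then 1 (Zc3h12a), and the counts over all genes were 601 higher and 1285 lower in place of 822 and 869.

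Smooth muscle markers were abundant, with a summed level of 36884 TMM-scaled CPM (reads relative to library size) in the control and 40487 in the depolarized library. Tagln, usually a strong smooth muscle transcript, had only 314 and 387 reads. The 8 endothelial markers summed to 3274 and 4477 CPM, with a median log2(fold-change) of 0.38 and 1 past 2-fold lower (Kdr, 168 and 73 reads). Adipocyte markers stood at 49.5 and 20.3 CPM in sum, with 3 of 6 past 2-fold lower and 1 higher, and pancreas markers stood at 14.0 and 46.9 CPM, with 5 of 6 measured past 2-fold higher. Macrophage markers summed to 54.1 and 49.9 CPM, and no neutrophil or lymphocyte marker reached 10 reads, with 3 of 6 neutrophil and 3 of 8 lymphocyte markers at 0 in the control and 5 and 4 at 0 in the depolarized library. The 10 members together summed to 5032 CPM in the control and 5954 in the depolarized library. Whether the endothelial, adipocyte or pancreatic signal has a part in any value of the members was not tested, and in bulk RNA fewer cells of a type and less RNA per cell cannot be told apart.

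The sequences below show the stretches upstream of the members with the largest differences (Zc3h12a and Btg1), of the member with the highest level (Btg2) and of Zfp36, because the study concerns the cAMP-response element binding protein CREB. Each line is 250 bases that end just before the annotated start of the gene (GENCODE vM1), read 5′ to 3′ on the gene's strand from the mm9 genome, and capitals mark copies of the full cAMP-response element (CRE) TGACGTCA, of its short form TGACG or its complement CGTCA, or of the serum response CArG box. They lie at chr4:124805085-124805334 (minus strand), chr10:96079385-96079634 (plus), chr1:135975698-135975947 (minus) and chr7:29164275-29164524 (minus).
Zc3h12a: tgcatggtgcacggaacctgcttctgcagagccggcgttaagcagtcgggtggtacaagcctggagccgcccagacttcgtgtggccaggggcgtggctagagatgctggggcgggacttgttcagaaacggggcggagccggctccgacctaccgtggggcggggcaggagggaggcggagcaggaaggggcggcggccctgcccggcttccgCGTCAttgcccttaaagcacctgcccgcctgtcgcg
Btg1: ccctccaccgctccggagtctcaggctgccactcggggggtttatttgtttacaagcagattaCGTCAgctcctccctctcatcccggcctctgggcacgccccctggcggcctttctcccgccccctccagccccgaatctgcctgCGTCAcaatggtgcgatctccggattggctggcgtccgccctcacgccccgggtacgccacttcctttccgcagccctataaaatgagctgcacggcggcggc
Btg2: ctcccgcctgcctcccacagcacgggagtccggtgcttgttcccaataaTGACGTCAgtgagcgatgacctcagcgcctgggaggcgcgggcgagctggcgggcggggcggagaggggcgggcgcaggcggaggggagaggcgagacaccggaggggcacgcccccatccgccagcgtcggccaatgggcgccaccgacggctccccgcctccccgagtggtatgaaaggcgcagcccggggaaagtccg
Zfp36: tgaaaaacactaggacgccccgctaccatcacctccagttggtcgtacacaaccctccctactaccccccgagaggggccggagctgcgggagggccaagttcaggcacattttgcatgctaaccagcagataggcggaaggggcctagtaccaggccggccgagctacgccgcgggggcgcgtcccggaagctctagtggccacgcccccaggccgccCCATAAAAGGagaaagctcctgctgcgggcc

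Only Btg2 among the members held a full CRE from 250 bases before to 50 bases after its start. Its copy began 201 bases before the start, and 2.37% of 20758 genes held one in the same window. A short CRE, searched on both strands and counted also inside a full CRE, was found in 5 members (Zfp36l2, Zc3h12a, Btg1, Btg2 and Tob1), against 24.26% of all genes. The CArG box was found in Zfp36 alone of the members, 31 bases before its start, and in 1.412% of all genes. No member held the kappa-B motif in this window (9.148% of all genes). From 1000 bases before to 200 after the start, the full CRE was held by Elavl1 and Btg2 (3.228% of genes), the short CRE by 7 members (47.55%), the CArG box by Zfp36, Btg1 and Tob2 (5.95%), and the kappa-B motif by Zfp36l1, Elavl1, Btg1 and Tob1 (25.59%). Distances to the start depend on the annotation. Relative to the vM1 start, the RefSeq start lies at -41 bases for Zc3h12a, -35 for Btg2, -7 for Rc3h1 and 27 for Zfp36 (minus is upstream). The printed short CRE of Zc3h12a, 36 bases before the vM1 start, thus lies after the RefSeq start. A match describes the letters and no binding was measured at these sites.

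Some members also carry the element that Zfp36 proteins bind, and the sites below are shown because the Zfp36 transcripts themselves hold it. Each is 29 bases of a 3′ UTR, written as DNA on the gene's strand of mm9, with the heptamer TATTTAT in capitals. The heptamer is the core of an AU-rich element. In the Zfp36, Zfp36l1, Zfp36l2, Rc3h1 and Elavl1 lines it lies within the longer nonamer TTATTTATT, and in the Btg2 line it does not. In the order printed, the sites are at chr7:29161970-29161998, chr12:81209154-81209182, chr17:84584254-84584282, chr1:162900174-162900202, chr8:4285780-4285808 and chr1:135973826-135973854.
Zfp36: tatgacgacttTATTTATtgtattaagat
Zfp36l1: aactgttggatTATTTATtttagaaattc
Zfp36l2: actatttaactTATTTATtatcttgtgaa
Rc3h1: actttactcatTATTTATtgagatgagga
Elavl1: aattatttattTATTTATttatttttatt
Btg2: aaatgaagagcTATTTATacatgtttttt

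Of the 10 members, 7 held at least 1 heptamer in their longest annotated 3′ UTR, compared with 24.49% of 18992 genes, and 5 held a nonamer, compared with 6.571%. The 3′ UTRs of the members ranged from 767 to 7181 bases. Genes tested had medians of 2250 bases with a nonamer and 1110 without, and the part of length in these shares was not tested. All 3 genes of the Zfp36 family had 3 heptamers and 1 nonamer each, in 3′ UTRs of 774, 1829 and 1822 bases for Zfp36, Zfp36l1 and Zfp36l2. Elavl1 had 8 heptamers, some of them overlapping, in a single cluster from base 3795 to 3847 of its 4818-base 3′ UTR. Rc3h1 had 2 heptamers, and Btg2 and Tob2 had 1 each. Zc3h12a, Btg1 and Tob1 had none, in 3′ UTRs of 856, 4170 and 767 bases. They include the 2 members past a 2-fold difference, but most genes lack the heptamer as well (24.49% held one). With the shortest annotated 3′ UTR of each gene, 6 members held a heptamer (16.89% of genes) and 4 a nonamer (4.376%), because the shorter form of Zfp36l1 (794 bases) has none. Which form was present in these arteries was not measured.

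**Figure D1:**
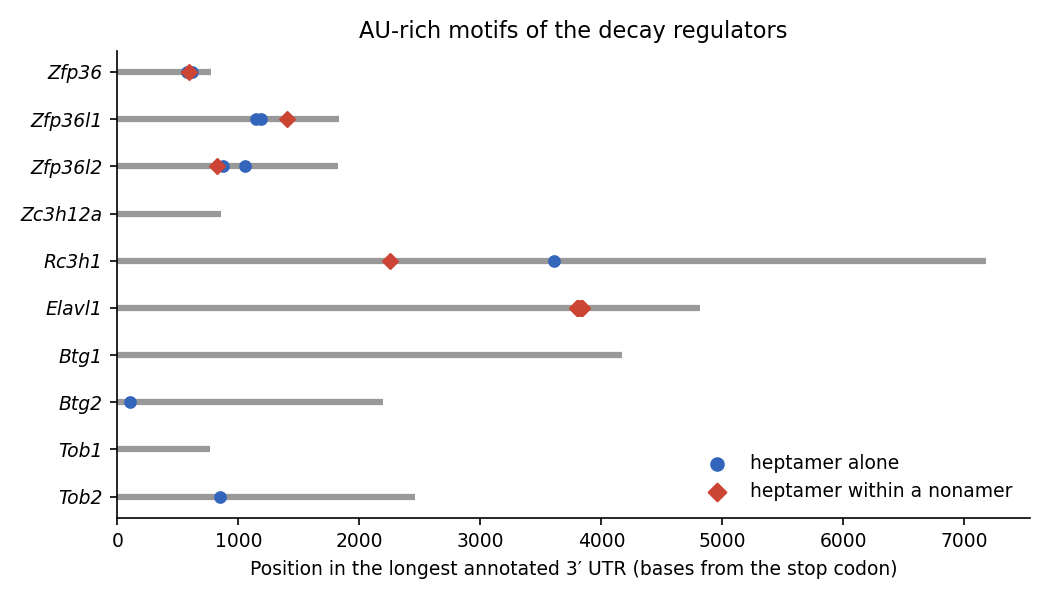
Positions of AU-rich heptamers along the longest annotated 3′ UTR of each member, in bases from its beginning. Gray bars are the UTRs, circles are heptamers alone and diamonds are heptamers within a nonamer. The 8 copies in Elavl1 sit in 1 cluster, and Zc3h12a, Btg1 and Tob1 have no mark.

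Zfp36 (ENSMUSG00000044786, mm9 chr7:29161803-29164274, minus strand) encodes tristetraprolin, the best known protein that binds AU-rich elements. It had 15179 reads in the control and 19514 in the depolarized library. Its level per gene length was 551 fragments per kilobase of gene length, scaled to library size (FPKM) in the control and 658 with 60 mM K+, which placed it at rank 148 and rank 142 of all genes. The transcript was thus already among the most abundant in control arteries. Its log2(fold-change) was 0.46 (interval 0.43 to 0.49), and 16.2% of genes tested had a higher one.

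Zfp36l1 (ENSMUSG00000021127, chr12:81208747-81214000, minus strand) encodes a paralog that binds the same element. It had 802 reads in the control and 1349 in the depolarized library, or 53.1 and 83.0 FPKM. Its log2(fold-change) of 0.85 (0.72 to 0.98) was the largest of the family and just under the 2-fold line, and 7.15% of genes tested had a higher one. The annotation places Gm17591 on the opposite strand over this gene, and with a library kit that does not mark strand their reads cannot be told apart.

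Zfp36l2 (ENSMUSG00000045817, chr17:84583271-84587287, minus strand), the remaining paralog, had 1302 and 1373 reads, or 35.2 and 34.5 FPKM. Its log2(fold-change) was 0.18 (0.07 to 0.29) with TMM scaling and -0.03 with total counts, so its direction depends on the scaling. The family therefore differed unevenly between the libraries.

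Ratios between members do not depend on the scaling. The log2(fold-change) of Zfp36l1 exceeded that of Zfp36 by 0.39 (0.26 to 0.52) and that of Zfp36l2 by 0.67 (0.50 to 0.84), and Zfp36 exceeded Zfp36l2 by 0.29 (0.17 to 0.40). Each of these intervals lies above 0, for counting error alone. Zfp36 made up 86.2% of the family's summed FPKM in the control and 84.9% in the depolarized library, so that it was the dominant form in each.

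Zc3h12a (ENSMUSG00000042677, chr4:124795667-124805084, minus strand) encodes regnase-1, an endonuclease that cuts inflammatory transcripts such as Il6. It had 447 reads in the control and 1329 in the depolarized library. Its level was 25.0 and 68.9 FPKM, which moved it from rank 4296 to rank 1593 of all genes. This was the largest difference of the 10 members. The log2(fold-change) was 1.67 (1.52 to 1.83) with TMM scaling and 1.46 with total counts, and 2.01% of genes tested had a higher one.

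Rc3h1 (ENSMUSG00000040423, chr1:162836549-162905109, plus strand) encodes roquin-1, which recognizes stem-loops and recruits the deadenylase. It had 471 and 498 reads, and its level of 8.90 and 8.74 FPKM was the lowest of the members per gene length. Its log2(fold-change) was 0.18 (-0.0028 to 0.37) with TMM scaling and -0.03 with total counts, which gives no direction. Zc3h12a exceeded Rc3h1 by 1.49 (1.25 to 1.74) in log2(fold-change). The pair of stem-loop regulators thus differed between the libraries unequally, by more than the counting error.

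Elavl1 (ENSMUSG00000040028, chr8:4284782-4325100, minus strand) encodes HuR, the member known for stabilizing transcripts. It had 638 reads in the control and 614 in the depolarized library, or 18.1 and 16.1 FPKM. Its log2(fold-change) was 0.05 (-0.12 to 0.21) with TMM scaling and -0.16 with total counts. With TMM scaling the interval, which covers counting error alone, included 0, and the value with total counts lay outside it. No direction holds under both scalings. The interval sets no bound on the difference, because the spread between animals was not measured.

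**Figure D2:**
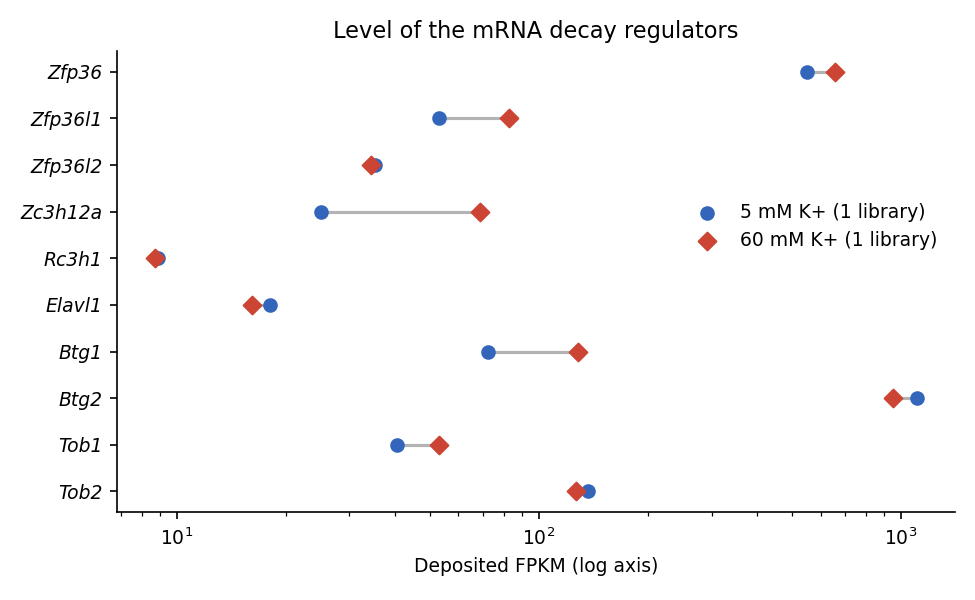
Deposited FPKM of each member (log axis) in the control library (circles) and the depolarized library (diamonds), 1 library each. Zc3h12a shows the widest gap, from 25.0 to 68.9 FPKM, and Btg2 and Zfp36 have the highest levels in both libraries.

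Btg1 (ENSMUSG00000036478, chr10:96079635-96085447, plus strand) encodes an antiproliferative protein that binds the deadenylase. It had 2151 reads in the control and 4107 in the depolarized library, or 72.4 and 128 FPKM. Its log2(fold-change) was 1.03 (0.96 to 1.11), and 5.31% of genes tested had a higher one. The lower end of the interval is under the 2-fold line, and with total counts the value was 0.83, so its place past 2-fold depends on the scaling and its higher level in the depolarized library does not.

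Btg2 (ENSMUSG00000020423, chr1:135971747-135975697, minus strand) encodes the closest relative of Btg1 in this group and is known as an immediate early and p53 target gene. It had 31781 reads in the control, or 0.303% of all reads (exact Clopper-Pearson interval 0.300% to 0.307%), and 29436 reads in the depolarized library, or 0.261% (0.258% to 0.264%). Its level was 1105 and 951 FPKM, at rank 52 and rank 79 of all genes. The log2(fold-change) was -0.0092 (-0.032 to 0.014) with TMM scaling and -0.22 with total counts. Btg2 was therefore the most abundant member in each library and was not higher in the depolarized library under either scaling.

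Tob1 (ENSMUSG00000037573, chr11:94072768-94076809, plus strand) encodes a protein that links the deadenylase to the poly(A)-binding protein. It had 976 and 1373 reads, or 40.7 and 53.2 FPKM, with a log2(fold-change) of 0.59 (0.47 to 0.71). With total counts the value was 0.39, in the same direction.

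Tob2 (ENSMUSG00000048546, chr15:81678700-81688756, minus strand), its paralog, had 2953 and 2934 reads, or 137 and 127 FPKM. The log2(fold-change) was 0.09 (0.02 to 0.17) with TMM scaling and -0.12 with total counts, so no direction holds under both. GENCODE vM1 gives the name Tob2 to another entry on the same strand that overlaps this gene. In the deposited genes the name matched a single identifier. Whether the overlap affected its read count is not known, because the annotation used for counting is not stated.

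The members of each pair differed from each other. The log2(fold-change) of Btg1 exceeded that of Btg2 by 1.04 (0.96 to 1.12), and that of Tob1 exceeded that of Tob2 by 0.50 (0.36 to 0.64). In each pair the less abundant gene in the control had the larger difference. Btg2 made up 81.5% of the summed FPKM of the Btg/Tob family in the control and 75.5% in the depolarized library, while the share of Btg1 went from 5.34% to 10.2%. With the longest GENCODE vM1 transcript as length, the share of Btg1 was 3.26% and 6.36%.

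**Figure D3:**
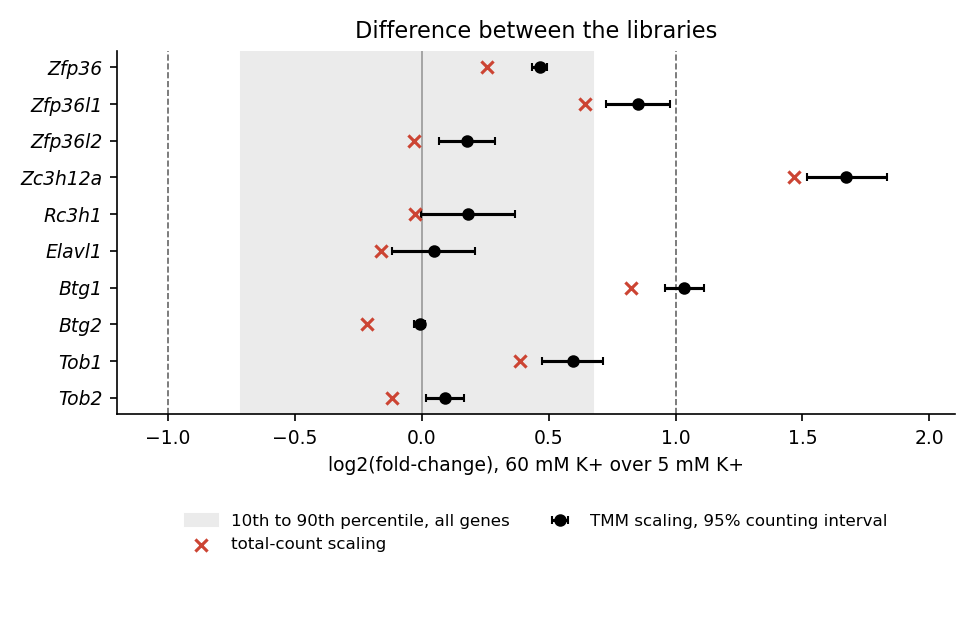
log2(fold-change) of 60 mM K+ over 5 mM K+ for each member. Black points are TMM-scaled values with 95% counting intervals, crosses are values with total counts, the gray band runs from the 10th to the 90th percentile of all genes tested (-0.71 to 0.67) and dashed lines mark 2-fold. Zc3h12a lies past the line under both scalings and Btg1 only with TMM.

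In the control, the order of the FPKM from highest to lowest was Btg2, Zfp36, Tob2, Btg1, Zfp36l1, Tob1, Zfp36l2, Zc3h12a, Elavl1 and Rc3h1. Every pair of neighbors differed by more than its counting interval, the closest being Tob1 over Zfp36l2 at 1.16-fold (1.06 to 1.26). In the depolarized library Btg1 stood beside Tob2 at a ratio of 1.01 (0.967 to 1.06), a pair that was not separated, and Zc3h12a had moved above Tob1 and Zfp36l2. These levels rest on the gene lengths implied by the deposited tables, which for some members differ from the longest GENCODE vM1 transcript (1440 against 2984 bases for Zfp36l1, 1708 against 2755 for Zc3h12a). With the vM1 lengths, Zfp36l1 in the control was 25.6 FPKM and lay below Zfp36l2 at 35.2, and Btg1 at 41.0 lay beside Tob1 at 40.7. Btg2 and Zfp36 stayed highest, at 1105 and 808 FPKM. In the depolarized library, Zc3h12a at 42.7 FPKM then lay below Tob1 at 53.2, and Btg1 at 72.6 lay above Tob2 at 65.1. Differences between the libraries do not depend on these lengths.

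**Figure D4:**
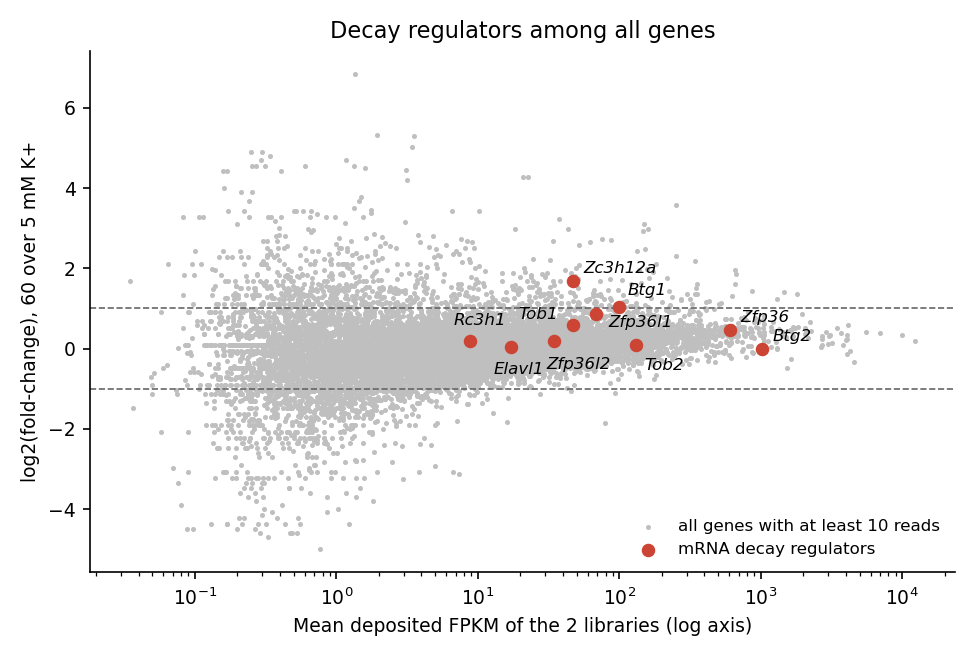
log2(fold-change) of 60 mM K+ over 5 mM K+ against the mean deposited FPKM of the 2 libraries (log axis) for all 14829 genes tested (gray) and the 10 members (labeled). Dashed lines mark 2-fold. The gray cloud narrows toward high levels, Zc3h12a lies above the upper line, and Btg2 and Zfp36 lie far to the right, at -0.0092 and 0.46.

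Other genes of the decay machinery were counted in the same way. Lists of the other family members, the enzymes of decay, other UTR-binding proteins and the kinases of the Zfp36 proteins named 104 genes, of which 93 were tested. Of these, 3 were past 2-fold higher and 1 lower, beside the 5.54% and 5.86% of all genes. Among genes with at least 500 reads the shares were 3.24% and 0.122%. At such shares a list of this size would hold few genes past 2-fold, so these counts are not a trait of the machinery. The median log2(fold-change) was -0.0081. With total counts, 0 were past 2-fold higher and 3 lower (Igf2bp3, Zc3h12c and Tia1, named after their values were seen), with a median of -0.22. Counts for each list are given below, and the lists were chosen with earlier results of these data known. On each of these short lists, a count of 0 lies near the shares over all genes.

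Of the other family members, 5 of 11 were tested and none was past 2-fold with TMM scaling. Btg3, a further antiproliferative family member, had 339 and 523 reads, with a log2(fold-change) of 0.73 (0.53 to 0.93). Rc3h2, the paralog of roquin-1, had 579 and 461 reads and a value of -0.23 (-0.41 to -0.05), in the same direction with total counts (-0.44). Zc3h12c, a paralog of regnase-1 named after its value was seen, had 154 and 76 reads and a value of -0.92 (-1.33 to -0.51), and -1.13 with total counts, the opposite direction to Zc3h12a. Zfp36l3, Elavl2 and Elavl4 had 0 reads in both libraries. A count of 0 allows up to 3 reads in a library, for counting error alone.

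None of the 11 tested genes of CCR4-NOT was past 2-fold, with a median of -0.05. Cnot8, a catalytic subunit bound by Btg and Tob proteins, had 601 and 542 reads, with a log2(fold-change) of -0.05 (-0.22 to 0.12), and Tnks1bp1, a protein associated with the complex, had 0.34 (0.24 to 0.43). None of the 8 genes listed as other deadenylases, whose activity was not measured, was past 2-fold. Pan3, of the Pan2-Pan3 deadenylase, had 0.10 (-0.07 to 0.26) and Noct (nocturnin) had 0.14 (0.03 to 0.24) with TMM scaling, and both were below 0 with total counts. On lists this short, a count of 0 lies near the shares over all genes and is not a trait of these genes.

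No gene was past 2-fold among 18 of decapping and 5′ decay, 16 of the exosome and 3′ decay, and 8 of nonsense-mediated decay. Pnrc1, which binds decapping factors, had 1399 and 2361 reads, with a log2(fold-change) of 0.86 (0.76 to 0.95). Lsm4, of the Lsm ring, had 0.30 (0.11 to 0.49). Exosc10 and Skic2, of the exosome and its helicase complex, had -0.04 and 0.03, and Smg5, of nonsense-mediated decay, had 0.0010, all 3 with intervals that include 0.

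Of 19 tested UTR-binding proteins, 0 were past 2-fold higher and 1 was past it lower (Igf2bp3, with 22 and 5 reads, named here after its value was seen). Pabpc1, the cytoplasmic poly(A)-binding protein, had 2805 and 3222 reads, with a log2(fold-change) of 0.30 (0.23 to 0.37). Arid5a, known to protect Il6 mRNA against regnase-1, had 2740 reads in the control and 4537 in the depolarized library, and a value of 0.83 (0.76 to 0.90). It was thus higher together with Zc3h12a, by less. Tia1, which binds U-rich and AU-rich elements, had 472 and 244 reads and a value of -0.85 (-1.08 to -0.62), and -1.06 with total counts.

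The 3 machinery genes past 2-fold higher were all kinases of the p38 pathway that acts on the Zfp36 proteins. Mapkapk2, which phosphorylates tristetraprolin and weakens its recruitment of the deadenylase, had 1614 and 3147 reads, or 87.2 and 158 FPKM,, with a log2(fold-change) of 1.06 (0.98 to 1.15). Map2k3, which activates p38, had 945 and 1955 reads and a value of 1.15 (1.04 to 1.26). Map2k6, with the same role, had only 38 and 72 reads and a value of 1.02 (0.44 to 1.63). With total counts they were 0.86, 0.94 and 0.81, all below 2-fold. Akt1, which also phosphorylates proteins of the family, had 2246 and 2406 reads and a value of 0.20 with TMM scaling and -0.0080 with total counts. Of the 8 kinases, 3 were past 2-fold higher and 0 lower, beside 5.54% and 5.86% of all genes. Mapkapk2 and Map2k3 are on the study's list of up-regulated genes from these same libraries, so this count is not independent evidence. The median was 0.60, and 6 were above 0. Mapk14 and Mapkapk3, named after their values were seen, were below 0, at -0.10 (-0.24 to 0.04) and -0.06 (-0.30 to 0.18).

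**Figure D5:**
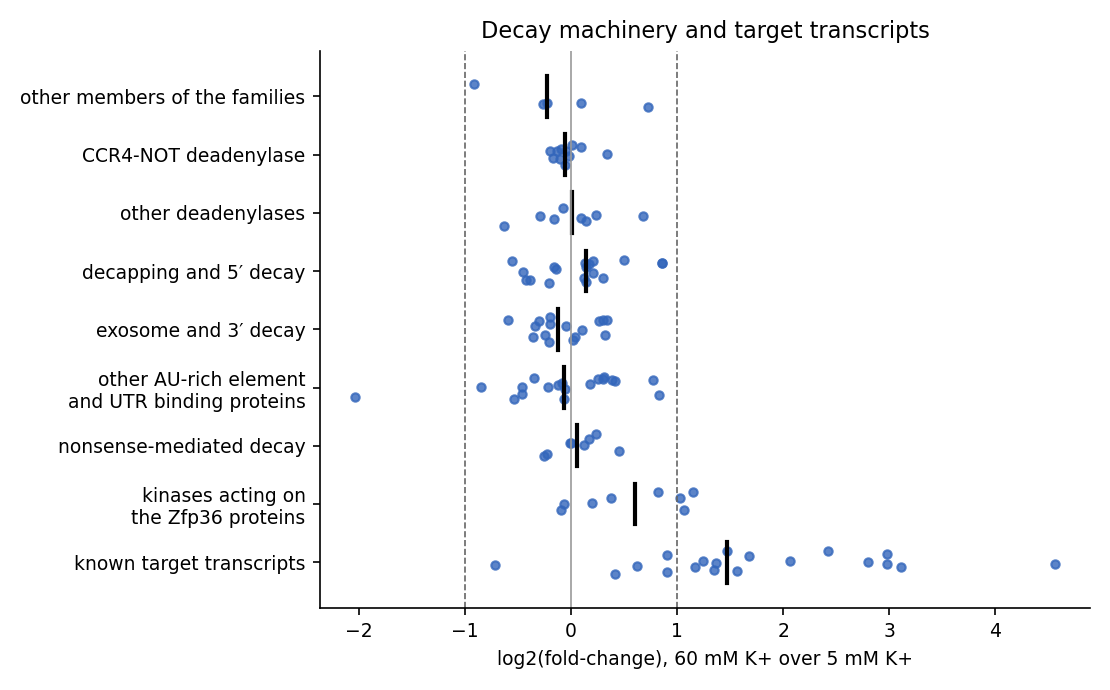
log2(fold-change) of 60 mM K+ over 5 mM K+ for the genes with at least 10 reads on each list, 1 point a gene. Black bars are medians and dashed lines mark 2-fold. The lists of the enzymes stay between the lines, 3 kinases lie just past the upper one, and most known target transcripts lie beyond it.

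Transcripts known as targets of Zfp36, regnase-1 or roquin were mostly higher in the depolarized library. Of 25 listed, 19 were tested, 14 were past 2-fold higher and 0 lower, beside 5.54% and 5.86% of all genes, with a median of 1.47. With total counts, 13 were past 2-fold higher and 0 lower. Of the 14, Tnf (2 and 13 reads), Il1b (4 and 11) and Ccl3 (1 and 22), named here for their low counts, rest on few reads. The interval of Il1b includes 0 (-0.19 to 3.67). Several of these genes were picked by the study on these same libraries, so the count is not independent evidence of the direction. Besides these libraries, the study measured Il6, Cxcl1, Cxcl2 and Ccl2 by qPCR and reported them up-regulated after depolarization. The remaining 6 had fewer than 10 reads.

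Cytokine and chemokine transcripts made up the largest differences among those with at least 50 reads. Il6, the best known target of regnase-1, had 631 and 3152 reads, with a log2(fold-change) of 2.42 (2.30 to 2.55). The chemokines Cxcl1, Cxcl2 and Ccl2 had 3.11, 2.98 and 2.98, and the cytokine Lif had 2.06. These values are above that of Zc3h12a.

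Ptgs2, the inducible cyclooxygenase, had 1465 and 3788 reads, with a log2(fold-change) of 1.47 (1.38 to 1.56). Myc had 1.68, the stress-response gene Ier3 had 1.25, Plau (urokinase) had 1.35, Lcn2 (lipocalin 2) had 1.36 and Nfkbid (an inhibitor of the NF-kappa-B family) had 1.17, the last of which was 0.96 with total counts. Fos, the immediate early gene with the classic AU-rich element, was the most abundant of the list, at 2681 and 3099 FPKM, and its log2(fold-change) was 0.42 (0.40 to 0.44), close to that of Zfp36. Ccnd1, named after its value was seen, was the single tested gene of the list below 0, at -0.71.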

How the data were processed

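Read counts per gene were deposited for 2 libraries. Per the study's methods and the submitters' processing notes, the authors mapped poly(A)-selected reads with TopHat2 (2.0.12) to mouse mm9, counted them with HTSeq (0.6.1) and scaled with edgeR (3.0.8); mm8 is also named in those notes, and for the annotation and the counting mode the sources used here give no name. The deposited FPKM are counts scaled by gene length and by the total of counted reads, and dividing the counts by them gave whole gene lengths, within 0.01 bases, for all 21374 genes with reads.

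The counts were scaled here by TMM (edgeR 4.0.16 in R 4.3.3). The log2(fold-change) was the log2 ratio of scaled counts, with 0 reads set to 0.5, and its interval the exact 95% Clopper-Pearson interval of the share of reads in 1 library. PCR duplicates were not marked by molecular identifiers, so intervals cover counting error only. Genes needed 10 reads in both libraries together. With 1 library per condition no test was run. The spread between animals is unknown. The calculation was tested on simulated counts for 14829 genes, drawn with counting error only and with the scaling known. All 200 genes changed by 1.5 on the log2 scale were called, as were 470 unchanged genes, 0 of which had at least 500 reads. Spread between animals was not simulated, so these counts give no rate of false calls for the real libraries.

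Gene symbols came from GENCODE vM1 and RefSeq tables; 32601 of the 55573 identifiers are in vM1, and 4 of the 104 names on the machinery lists matched none. Promoter and UTR motifs were searched in mm9 with vM1. Named genes were all members and, of each list, genes with at least 50 reads and past 2-fold, plus the 2 highest by mean FPKM; exceptions are marked, and 1 gene that the rule names is not reported here. Members and lists were chosen with earlier results of these data known. Alternatives were total counts, the size factors of DESeq2 (1.42.0, median of ratios), upper quartiles, FPKM with pseudocounts of 0.1 and 1, other read minimums, a 1.5-fold threshold, and the interval end nearest 0.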

Additional observations from a re-analysis of the deposited data

How the results depend on the processing

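No replicate could be left out, because each condition has 1 library. No paired analysis was possible because only 1 library stands for each condition and no result comes from a test. Median-of-ratios scaling moved no member's value beyond its interval, and upper-quartile scaling moved 2 (Zfp36 and Btg2). Total counts and FPKM with either pseudocount moved all 10, so the choice of scaling can exceed the counting intervals. In no alternative did a member past 2-fold change sign. The count of members past 2-fold higher (2) was 1 with total counts, upper-quartile scaling, FPKM with a pseudocount of 0.1 or 1, and the nearest interval end, where Btg1 was under the threshold, and 4 with a threshold of 1.5-fold. The count lower was 0 in every alternative listed. The median of 0.32 was 0.114 with total counts, 0.114 with FPKM (pseudocount 0.1) and 0.115 with FPKM (pseudocount 1). With total counts or FPKM, 4 members changed sign (Zfp36l2, Rc3h1, Elavl1 and Tob2). Over all genes, 822 higher and 869 lower became 601 and 1285 with total counts, 497 and 1037 with FPKM (pseudocount 0.1), and 240 and 193 with FPKM (pseudocount 1). They were 3081 and 2491 with no minimum of reads, 412 and 211 with at least 50 reads, 212 and 8 with at least 500 reads (a minimum added after the data were seen), 263 and 73 at the nearest interval end, and 1761 and 1939 with a threshold of 1.5-fold. The counting interval of Btg1 spans the 2-fold line, and the spread between animals was not measured.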

Other observations

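The nonamer described above was also counted in every gene, a split added after the data were seen. Of the genes tested, 964 had a nonamer in the longest annotated 3′ UTR, and 7.16% of them were past 2-fold higher in the depolarized library, against 4.68% of the 11871 without one. Past 2-fold lower were 3.84% and 3.69%. The median log2(fold-change) was -0.05 with a nonamer and 0.02 without. Among genes with at least 500 reads, 30 of 500 with a nonamer were past 2-fold higher, against 172 of 5897 (2.92%) without. The 3′ UTRs with a nonamer were longer, with a median of 2364 bases against 1267 in that group, and the part of length in these shares was not tested.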
